A study of Mus musculus with 4 samples.

Results

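Long non-coding RNA (lncRNA) genes whose transcription start site (TSS) stands apart from every protein-coding TSS were examined for H3K27ac in the left cerebral cortex. They were chosen by position alone: lncRNA genes of 5 annotated types on the autosomes, taken from the GENCODE vM21 basic annotation, with a TSS more than 5 kb from any protein-coding TSS, and a window of 1 kb on either side of that TSS. The rule gave 8107 windows at 6991 genes, of 11011 lncRNA windows at 9392 lncRNA genes of these types and of 50608 coding and lncRNA windows in all. By annotated type, 4595 of the genes were lincRNA, 1708 antisense, 423 processed_transcript, 259 sense_intronic and 6 bidirectional_promoter_lncRNA. The peaks described are the 1516 peaks of the replicated list that overlap a window by at least 1 bp, of 72027 peaks in the list.

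The study comprised 4 chromatin immunoprecipitation sequencing (ChIP-seq) libraries in 1 group: female B6CASTF1/J mice, hybrids of the strains C57BL/6J and CAST/EiJ, aged 2 months, with no treatment, mutant or second tissue. The libraries came from 2 pools, I and J, each made from 4 biosamples and sequenced as 2 technical libraries. Because the libraries of a pool share 1 alignment, each pool gives a value and a library does not, and the spread between individual mice is not visible in them. Promoters of coding cortical marker genes (Slc17a7, Neurod6, Gad1, Aqp4 and Mbp) carried a replicated peak in 5 of 5 cases, and those of Alb, Myh6, Ins2 and Umod, genes of liver, heart, pancreas and kidney, in 0 of 4. The replicated list was the main list, and pseudoreplicated lists of both pools (76359 peaks), of pool I alone (69835) and of pool J alone (49839) stood beside it. The lists hold no read numbers, and sequencing depth is therefore unknown.

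Acetylation of lysine 27 on histone H3 (H3K27ac) is placed by the acetyltransferases p300 and CBP and marks nucleosomes beside active promoters and enhancers. LncRNA genes are transcribed by RNA polymerase II like coding genes, and their products act in the nucleus or cytoplasm or serve mainly as precursors of microRNAs (miRNAs) or small nucleolar RNAs (snoRNAs). Most coding promoters in mammals lie in CpG islands, stretches in which the CpG dinucleotide has escaped its usual loss, whereas many lncRNA promoters do not. A peak over a TSS does not by itself tell use as a promoter from use as an enhancer.

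Reference sequences around the summits of 7 marked promoters and around the TSS of 1 CpG-rich promoter without a peak are shown, since the share of windows with a peak varied more with CpG content than with the gene type, place or neighbourhood described below. Each line gives 201 bases of GRCm38 (mm10) on the strand of the lncRNA, with every CpG in capitals.
Malat1 (chr19:5803133-5803333, minus strand, summit): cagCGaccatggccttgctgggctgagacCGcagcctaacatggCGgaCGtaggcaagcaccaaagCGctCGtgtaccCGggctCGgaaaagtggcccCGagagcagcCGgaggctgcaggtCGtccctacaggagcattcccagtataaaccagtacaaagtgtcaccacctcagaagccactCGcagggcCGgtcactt
C030034I22Rik (chr17:69417405-69417605, plus strand, summit): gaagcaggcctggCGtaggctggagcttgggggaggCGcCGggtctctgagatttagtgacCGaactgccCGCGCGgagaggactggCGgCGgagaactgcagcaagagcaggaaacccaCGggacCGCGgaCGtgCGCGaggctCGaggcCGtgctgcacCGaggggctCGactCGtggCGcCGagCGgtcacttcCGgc
6720427I07Rik (chr13:48546230-48546430, minus strand, summit): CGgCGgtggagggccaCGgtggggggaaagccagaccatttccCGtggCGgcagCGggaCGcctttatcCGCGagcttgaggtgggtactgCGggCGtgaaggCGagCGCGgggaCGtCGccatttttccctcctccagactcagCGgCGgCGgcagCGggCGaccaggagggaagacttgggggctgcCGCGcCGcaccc
C130071C03Rik (chr13:83720861-83721061, plus strand, summit): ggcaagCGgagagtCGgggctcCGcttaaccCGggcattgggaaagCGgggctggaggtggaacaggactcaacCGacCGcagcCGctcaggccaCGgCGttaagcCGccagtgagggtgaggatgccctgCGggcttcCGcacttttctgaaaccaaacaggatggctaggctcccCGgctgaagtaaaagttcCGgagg
Gm26871 (chr3:118430429-118430629, plus strand, summit): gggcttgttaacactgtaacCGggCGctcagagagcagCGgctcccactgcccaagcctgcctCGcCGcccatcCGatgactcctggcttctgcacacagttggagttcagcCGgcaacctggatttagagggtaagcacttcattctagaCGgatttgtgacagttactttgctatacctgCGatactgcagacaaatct
Meg3 (chr12:109541112-109541312, plus strand, summit): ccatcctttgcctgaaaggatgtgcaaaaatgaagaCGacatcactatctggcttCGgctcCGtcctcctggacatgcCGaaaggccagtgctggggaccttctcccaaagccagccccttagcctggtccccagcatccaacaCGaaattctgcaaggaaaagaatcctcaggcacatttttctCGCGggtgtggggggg
Miat (chr5:112228375-112228575, minus strand, summit): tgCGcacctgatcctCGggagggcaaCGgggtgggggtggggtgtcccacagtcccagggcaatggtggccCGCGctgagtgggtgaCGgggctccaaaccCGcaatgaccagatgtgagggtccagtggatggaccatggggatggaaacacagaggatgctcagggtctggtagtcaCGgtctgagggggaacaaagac
9530036O11Rik (chr5:28458174-28458374, plus strand, TSS, no peak): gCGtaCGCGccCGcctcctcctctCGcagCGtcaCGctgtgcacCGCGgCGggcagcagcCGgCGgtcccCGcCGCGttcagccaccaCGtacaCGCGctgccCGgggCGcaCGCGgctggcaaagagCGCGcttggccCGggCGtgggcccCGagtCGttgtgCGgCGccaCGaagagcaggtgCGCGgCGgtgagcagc
The summit of C030034I22Rik, the highest among CpG-rich members, holds 24 CpG and that of 6720427I07Rik, host of let-7 miRNAs, 24. The summits of Meg3 and Miat, both studied in brain, hold 7 and 8. The unmarked start site of 9530036O11Rik holds 34, more than either of these brain lncRNAs.

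H3K27ac marked a minority of the isolated lncRNA promoters. A replicated peak overlapped 1439 of 8107 windows, or 17.8% (exact 95% Clopper-Pearson interval 16.9 to 18.6), against 59.5% of 39599 coding windows (59.01 to 59.98) and 53.1% of all coding and lncRNA windows. LncRNA windows nearer to a coding TSS were marked in 64.3% of cases (62.52 to 66.04, of 2904). By gene, 1139 of 6991 carried a peak at a window, or 16.3%, against 59.3% of coding genes and 49.8% of all genes. These intervals cover counting only: neighbouring windows can share a peak, and they say nothing of the spread between animals.

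The low share was found in each pool. The pool I list overlapped 18.3% of the isolated lncRNA windows against 53.1% of all windows, and the pool J list 13.8% against 49.6%. Peaks of both lists lay at 1101 windows, of the pool I list only at 382, of the pool J list only at 19 and of no pool list at 6605. All 1101 windows found in both pools also had a replicated peak. Among peaks with a −log10 q of at least 5, the share was 13.7% for isolated lncRNA windows, 55.8% for coding windows and 49.3% for all windows.

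The annotation behind the word "alone" was checked against further transcripts. Of the 8107 windows, 818 lie within 5 kb of a coding TSS of the comprehensive GENCODE set or of a RefSeq mRNA, which the basic set does not list. Of these, 28.6% had a replicated peak, and of the other 7289 windows 16.5% did. Among the genes given values, Atcayos, Gm13091, Gm26684, Gm26839, Gm38163, Mir22hg, Trerf1, Epb41l4aos and 4930449E18Rik have their highest peak at a window of the 818, and of those named without a replicated peak Gm10685, Gm15884, Haglr and Snhg14 also have such a window. The GENCODE entry for Trerf1 is of the type processed_transcript, while RefSeq lists Trerf1 as protein-coding.

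Coverage by peaks was centred on the lncRNA start sites. At the TSS itself 11.2% of the isolated lncRNA TSSs were covered, and 250 bp downstream 11.8%, against 43.4% and 53.2% of coding TSSs. At 10 kb upstream the shares were 3.21% and 4.11%, so the excess over the surroundings was local for both. Among windows with a peak, the highest one covered the lncRNA TSS in 54.3% of cases, against 66.4% for coding windows. Its summit lay within 500 bp of the TSS in 59.1% of lncRNA windows, against 81.4% of coding windows, and downstream of the TSS in 58.9% against 63.3%. The median summit lay 114 bp downstream of lncRNA start sites and 133 bp downstream of coding ones.

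**Figure D1:**
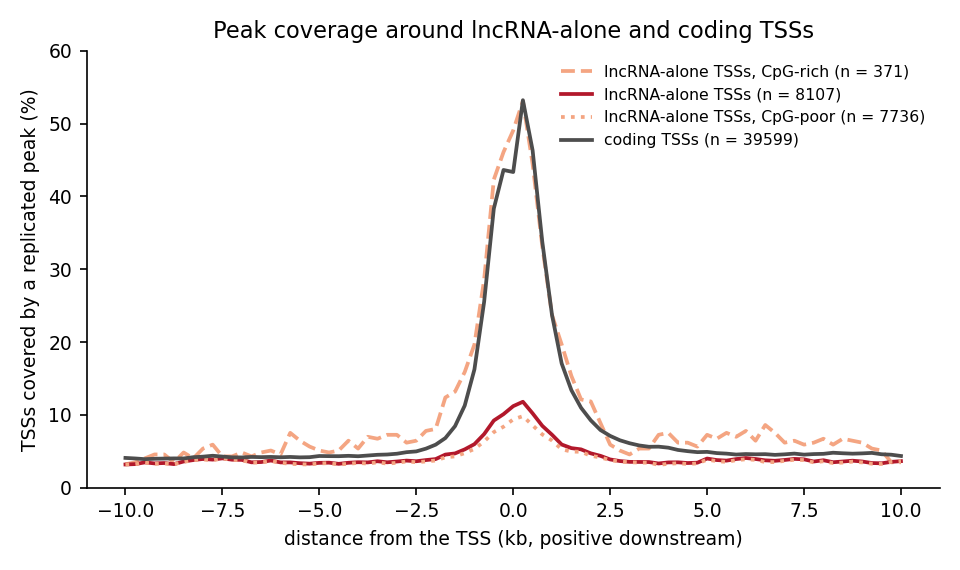
Share of TSSs covered by a replicated peak (y axis, percent) at each distance from the TSS (x axis, kb, positive downstream, in steps of 250 bp), for lncRNA-alone TSSs, their CpG-rich and CpG-poor classes, and coding TSSs. CpG-rich lncRNA TSSs reached 53.1% at 250 bp downstream and CpG-poor ones 9.84%, beside 53.2% for coding TSSs of both CpG classes together. Within the CpG-rich class, a peak lay at 61.2% of lncRNA windows and 90.7% of coding windows.

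In median signal and median width, peaks at isolated lncRNA promoters stood between coding promoter peaks and distal peaks. Their median signal, the value the authors' peak caller gave each peak, was 4.27 (quartiles 3.25 and 6.29) in the 1516 peaks, against 7.03 in 17051 coding promoter peaks, 3.37 in 45883 distal peaks more than 5 kb from coding TSSs and outside every lncRNA window, and 3.67 in all 70961 autosomal peaks. In median width they measured 781 bp, against 895 bp, 530 bp and 598 bp in the same order. Wide peaks did not follow this order: 14.6% of the lncRNA peaks measured 2 kb or more, against 14.3% of coding promoter peaks and 5.64% of distal peaks. A peak in the lists of both pools overlapped 67.2% of the lncRNA peaks, against 84.4% of coding promoter peaks and 46.2% of distal ones. Another 330 lncRNA peaks had a match in the pool I list only, 41 in the pool J list only and 127 in no pool list. Among the 7102 strongest autosomal peaks were 193 of the lncRNA peaks, or 12.7%, against 34.5% of coding promoter peaks and 1.82% of distal peaks. Only 1 of the 1516 peaks also overlapped a coding window, and 72 touched windows of more than 1 member gene.

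**Figure D2:**
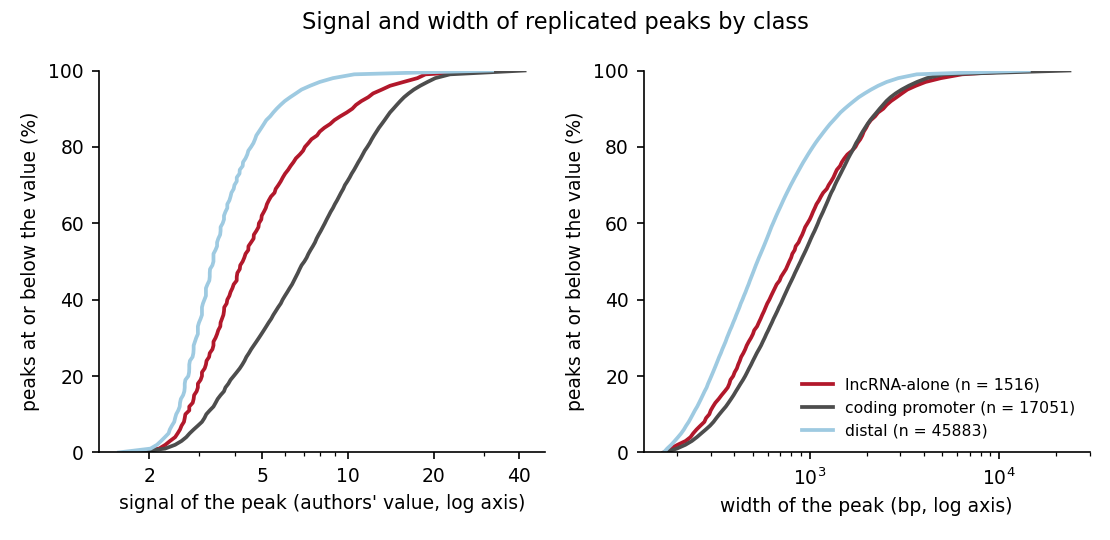
Cumulative share of peaks (y axis, percent) at or below a signal (left, authors' value, log axis) or width (right, bp, log axis), for lncRNA-alone, coding promoter and distal peaks of the replicated list. The lncRNA-alone signals, with a median of 4.27, lie between the medians of 7.03 for coding promoter peaks and 3.37 for distal peaks.

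CpG content was the feature along which the isolated lncRNA windows differed most. A TSS was called CpG-rich where the 500 bp around it had an observed over expected CpG ratio of at least 0.6 and a GC content of at least 50%. This held for 371 lncRNA windows, or 4.58%, against 19799 of 39599 coding windows. A replicated peak lay at 227 of the 371, or 61.2% (56.0 to 66.2), against 90.7% of CpG-rich coding windows (90.3 to 91.1). Of the 7736 CpG-poor lncRNA windows 1212 were marked, or 15.7% (14.9 to 16.5), against 28.2% of CpG-poor coding windows (27.6 to 28.9). Marked lncRNA windows were therefore mostly CpG-poor: 15.8% of them were CpG-rich, against 76.3% of marked coding windows.

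The difference in share depended on the CpG ratio itself. At ratios under 0.2, 10.4% of lncRNA windows (9.43 to 11.5) and 9.50% of coding windows (8.87 to 10.2) were marked, and the intervals overlapped. From 0.2 to 0.4 the shares were 16.7% and 27.6%, and from 0.4 to 0.6 they were 27.7% and 59.4%. They were 48.3% and 85.3% from 0.6 to 0.8, and 61.9% (54.6 to 68.7) and 93.7% (93.2 to 94.1) from 0.8 upwards. In each bin above 0.2 the interval of the lncRNA windows lay below that of the coding windows. Among marked genes, the 159 whose highest peak lay at a CpG-rich window had a median signal of 9.57, against 4.57 in the 980 whose highest peak lay at a CpG-poor one.

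**Figure D3:**
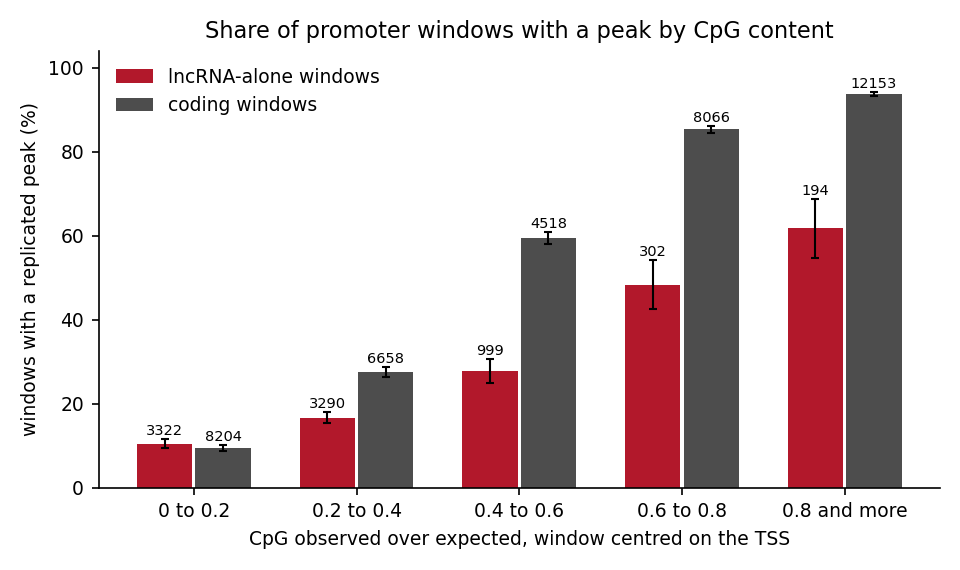
Share of windows with a replicated peak (y axis, percent) by the CpG observed over expected ratio of the 500 bp around the TSS (x axis), for lncRNA-alone windows (left bars) and coding windows (right bars). Error bars are exact 95% intervals and numbers above bars count windows; the shares climb from 10.4% to 61.9% for lncRNA-alone windows and from 9.50% to 93.7% for coding windows.

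Annotated type, place and surroundings went with smaller differences. Of processed_transcript windows 32.7% were marked (29.2 to 36.4, of 669), of antisense windows 20.8% (of 1922), of sense_intronic windows 16.2% (of 265) and of lincRNA windows 14.8% (13.8 to 15.7, of 5245). Within the CpG-poor class the shares were 25.5%, 19.1%, 15.9% and 13.3% in the same order, so the order did not rest on CpG-rich windows. Windows inside a coding gene on its opposite strand were marked in 21.6% of cases (19.7 to 23.7), inside a coding gene on the same strand in 19.04% and between genes in 16.6% (15.6 to 17.5). By distance from the nearest coding TSS the share was 21.2% at 5000 to 10000 bp, 21.5% at 25000 to 50000 bp, 17.1% at 50000 to 100000 bp and 12.1% beyond 250000 bp. Where the nearest coding gene had a promoter peak, 19.4% of lncRNA windows were marked (18.4 to 20.5, of 5771), against 13.6% where it had none (12.2 to 15.1, of 2336).

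Signal among the marked genes also differed by type, in another order. The median was 6.798 in 118 processed_transcript genes, 4.96 in 631 lincRNA genes, 4.56 in 346 antisense genes and 3.95 in 41 sense_intronic genes. The highest antisense genes were 1700021N21Rik, with 25.4 in the pool I list, 13.4 in the pool J list and 19.3 in the replicated list, and 1700113A16Rik, with 21.8, 14.8 and 18.5, 35120 bp from the neuronal factor gene Mef2d. Among sense_intronic genes Peg13, an imprinted RNA inside Trappc9, was the highest, and Gm38163 inside P4htm had 12.8, 7.17 and 9.94. The 3 marked bidirectional_promoter_lncRNA genes, of 6, were Gm26684, Gm26839 and Gm48814, with 13.5, 8.58 and 3.99 in the replicated list. Inside coding genes on the opposite strand, Gm13091 in Rere had 21.7, 14.5 and 17.8, and Gm15894 in Il34 had 21.7, 13.9 and 17.5 although its CpG ratio was 0.0992.

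The strongest isolated lncRNA promoter was that of Malat1, a nuclear RNA abundant in most cells. Its peak of 13197 bp, the widest of all 1516, had a signal of 38.7 in the pool I list, 24.7 in the pool J list and 32.1 in the replicated list. C030034I22Rik, an intergenic gene of unassigned role 21924 bp from Akain1, followed with 32.7, 21.2 and 27.2 in the same lists, on a peak of 1276 bp. Lncppara, a host of let-7 miRNAs, had 29.9, 21.7 and 26.1. E230001N04Rik and Gm20109 start on opposite strands under 1 shared peak, with 26.1, 19.7 and 25.2. Here and below, a pool's value is that of its highest peak overlapping the replicated peak, and since the lists were called separately the pools' values are set side by side without a comparison.

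The other genes of the 10 highest were Gm10433 with 32.6 in pool I, 16.3 in pool J and 24.3 in the replicated list, and Gm14488 with 20.5, 18.8 and 22.2, and 6720427I07Rik, given below. Dleu2, host of Mir15a and Mir16-1, had 28.9, 16.3 and 22.03, and a peak touched all 9 of its windows. 2210408F21Rik and Lncpint, a transcript induced by p53, lie opposite each other and shared a peak with 27.3, 14.3 and 21.3. All of the 10 highest were matched in both pools. Width set apart a partly different group: after Malat1 the widest peaks were 12257 bp, shared by AI849053, AW047730 and Gm3764, 10823 bp at C130071C03Rik and 10221 bp at 1700021N21Rik, an antisense gene 18149 bp from Stmn1.

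**Figure D4:**
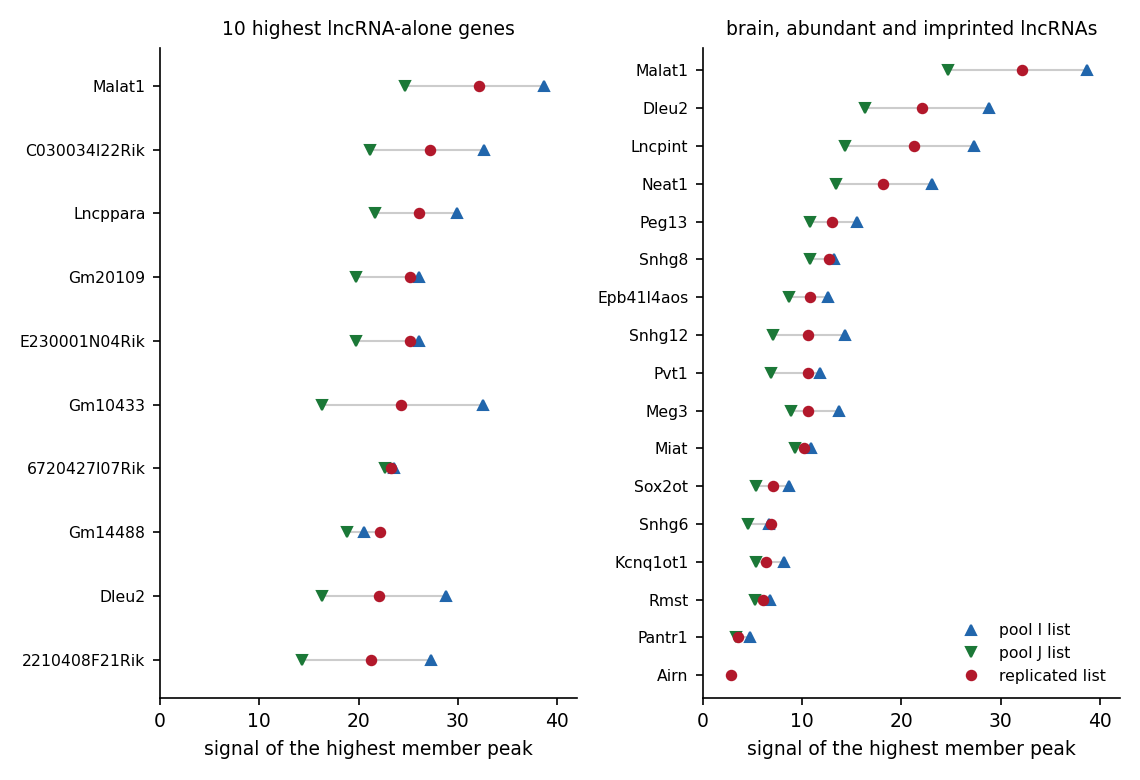
Signal of the highest member peak (x axis, authors' value) in the pool I list, the pool J list and the replicated list for the 10 highest lncRNA-alone genes (left) and for the marked genes of the brain, abundant and imprinted lists (right). Malat1 stands highest with 32.1 in the replicated list, and Airn, at 2.87, has no pool peak overlapping its highest replicated peak.

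A peak of 4 kb or more was present at 52 genes, on 48 peaks. Such peaks were 48 of the 1516 lncRNA peaks, 386 of 17051 coding promoter peaks, 351 of 45883 distal peaks and 826 of all 70961 autosomal peaks. Just under the width of 4 kb stood Trerf1 with 3965 bp, AC141471.6 with 3937 bp and 4930532M18Rik with 3935 bp. Just above it stood Rab11fip4os2 and AC122818.4 with 4075 bp each, and 4930449E18Rik with 4102 bp. Of the 52 genes, 11 were hosts of miRNAs, against 42 of all 1139 marked genes.

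Many of the strong members are hosts of miRNAs. Of 87 isolated lncRNA genes that span an annotated miRNA or are named as a host, 42 had a replicated peak. This was 48.3% (37.4 to 59.2), against 16.3% of all isolated lncRNA genes and near the 49.8% of all genes. The median signal of the 42 was 9.59, against 4.86 over all 1139 marked genes, and 37 of the 42 were matched in both pools. A gene was given its highest peak over all its windows, and some hosts have many, such as 3110039I08Rik with 17. Of all isolated lncRNA genes, 14.9% of those with 1 window and 37.3% of those with 3 or more were marked. Neither the share nor the signal of the hosts was corrected for this. The list follows from annotation, but it was chosen with earlier results of these data known and is given as a description. Mature sequences of miRNAs carried by marked hosts, and then of those carried by unmarked hosts, are shown so that marked and unmarked hosts can be read by miRNA family. They are from RefSeq on GRCm38.p6, which held 99 of the 108 miRNA genes with their own symbol in these hosts, and capitals mark the seed, bases 2 to 8.
mmu-let-7a-5p (6720427I07Rik): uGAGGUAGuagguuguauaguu
mmu-let-7b-5p (Lncppara): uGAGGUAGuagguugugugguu
mmu-let-7d-5p (6720427I07Rik): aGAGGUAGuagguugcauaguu
mmu-let-7f-5p (6720427I07Rik): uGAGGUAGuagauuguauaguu
mmu-miR-9-5p (C130071C03Rik): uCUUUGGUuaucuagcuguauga
mmu-miR-137-3p (Gm26871): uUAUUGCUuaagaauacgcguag
mmu-miR-29b-3p (A330023F24Rik): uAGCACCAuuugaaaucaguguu
mmu-miR-29c-3p (A330023F24Rik): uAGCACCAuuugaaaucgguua
mmu-miR-125b-5p (3110039I08Rik): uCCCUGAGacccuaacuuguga
Carried by hosts with no replicated peak:
mmu-miR-155-5p (Mir155hg): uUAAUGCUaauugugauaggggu
mmu-miR-200c-3p (Gm15884): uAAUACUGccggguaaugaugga
mmu-miR-205-5p (4631405K08Rik): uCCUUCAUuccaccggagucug
mmu-miR-206-3p (Gm28653): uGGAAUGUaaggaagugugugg
The let-7 copies share the seed GAGGUAG and the miR-29 copies AGCACCA.

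Marked hosts included those of miRNAs abundant in neurons. The marked hosts described here and below are a choice from the 42, made with earlier results of these data known. Hosts of other miRNAs were marked too, such as E130102H24Rik, host of Mir101a, and AL805899.1, host of Mir31. Their replicated signals were 16.0 and 8.16. All 3 genes of miR-9, which acts in neural progenitors and neurons, lay in marked hosts. C130071C03Rik, host of Mir9-2, had a signal of 24.1 in pool I, 16.3 in pool J and 19.8 in the replicated list. Mir9-3hg had 17.6, 13.2 and 14.9 on a peak of 6997 bp, and Gm3764, host of Mir9-1, had 11.3, 10.8 and 12.2. Each of the 3 was found in both pools, and each lay at least 33755 bp from a coding TSS.

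Mir124-2hg and Mir124a-1hg are hosts of copies of miR-124, a miRNA enriched in neurons. Mir124-2hg had 15.8 in pool I, 16.2 in pool J and 19.8 in the replicated list, and peaks touched all 7 of its windows. Mir124a-1hg had 23.7, 15.8 and 18.7 on a peak of 8625 bp. Gm26871, host of Mir137, a miRNA known for roles in neuronal maturation, had 20.6, 8.70 and 15.9, and all 5 of its windows were marked. Gm3294, host of Mir129-1, had 14.7, 8.91 and 12.0.

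Hosts of the let-7 family, known for its rise during differentiation, were marked at 4 places. Beside Lncppara, 6720427I07Rik, host of Mirlet7a-1, Mirlet7d and Mirlet7f-1, had 23.5 in pool I, 22.6 in pool J and 23.2 in the replicated list on a compact peak of 553 bp. 3110039I08Rik, host of Mir100, Mir125b-1 and Mirlet7a-2, had 22.3, 14.5 and 18.5, and a peak touched all 17 of its windows. Mir99ahg, host of Mir99a, Mirlet7c-1 and Mir125b-2, had 12.2, 9.01 and 9.80 at 11 of 13 windows. Gm49317 and Gm28119 span some of the same miRNAs as 3110039I08Rik and are not independent of it. A330023F24Rik, host of Mir29b-2 and Mir29c, miRNAs that increase as the brain matures, had 21.7, 14.5 and 18.04, and Mir22hg had 13.7, 8.34 and 12.2.

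Among the 45 hosts without a replicated peak were hosts of miRNAs best known from other tissues and hosts of miRNAs found in brain; those given here were chosen after their values were seen. Gm15884 spans Mir141 and Mir200c of epithelia, 4631405K08Rik spans Mir205 of stratified epithelia, Gm28653 spans Mir133b and Mir206 of skeletal muscle, and Gm12082 spans Mir216a and Mir217 of the pancreas. None of these 4 had a peak in the list of either pool, whereas AC157910.3, host of the liver miRNA Mir122, had one in pool I and none in pool J. Mir155hg, host of the immune miRNA Mir155, and Mir17hg, host of a cluster linked to proliferation, were also without a peak in all of these lists, as were A230057D06Rik, host of several Mir344 genes, D030055H07Rik, host of Mir135a-1, and the imprinted hosts Mirg and Rian. Mir138-2, a miRNA enriched in brain, lies in C78859, which had a peak in pool I and none in pool J or the replicated list. Mir133a-1hg, whose miRNAs are those of muscle, had a weak replicated peak with a signal of 2.60, matched in pool I at 2.88 and not in pool J.

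The lists of known lncRNAs differed in how many members were marked. Of 9 lncRNAs abundant in most cells that follow the rule, 9 had a peak in the replicated list and in the lists of both pools (66.4% to 100%), against 16.3% of all isolated lncRNA genes with a replicated peak and 49.8% of all genes. Beside Malat1 and Dleu2 these were Neat1, the scaffold of paraspeckles, with 23.1 in pool I, 13.4 in pool J and 18.1 in the replicated list, and Snhg8, a snoRNA host, with 13.2, 10.8 and 12.7. Epb41l4aos had a replicated signal of 10.8, Snhg12 and Pvt1 10.6 each, Snhg6 6.84 and Kcnq1ot1 6.36. The peak of Neat1, 9179 bp wide, also covered the start of the antisense gene Frmd8os.

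Of 12 lncRNAs studied in brain, 7 were marked, or 58.3% (27.7 to 84.8), against 16.3% of all isolated lncRNA genes and 49.8% of all genes. Each of the 7 was matched in both pools. Lncpint was the highest, followed by Peg13 with 15.6 in pool I, 10.8 in pool J and 13.0 in the replicated list. Meg3, an imprinted RNA of neurons, had 13.7, 8.91 and 10.6, and Miat, an RNA of nuclear bodies in neurons, had 10.8, 9.28 and 10.2. Sox2ot, which overlaps the gene of the neural factor SOX2, had 8.63, 5.34 and 7.03, and Rmst, an RNA that binds SOX2, had 6.75, 5.19 and 6.06. Pantr1, beside Pou3f3, had 4.71, 3.33 and 3.56, near the median of all autosomal peaks. Crnde, Dlx6os1, Gm16551, Mirg and Rian had no peak at a window in any of these lists. For Pantr1 and Crnde this rests on 1 window each, since 1 of 5 Pantr1 TSSs and 1 of 3 Crnde TSSs follow the rule.

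Imprinted lncRNAs are expressed from the copy of 1 parent. Of 9 members 4 were marked, or 44.4%, and the interval (13.7 to 78.8) takes in both the 16.3% of all isolated lncRNA genes and the 49.8% of all genes. The 4 were Peg13, Meg3, Kcnq1ot1 with 8.19 in pool I, 5.38 in pool J and 6.36 in the replicated list, and Airn. The highest Airn peak, of 200 bp, had a replicated signal of 2.87 and no overlapping peak in either pool list, although a pool I peak lay at an Airn window. H19, Mirg, Nctc1, Rian and Snhg14 had none. Rian and Mirg lie downstream of Meg3 on chromosome 12, at 109646162 and 109734981 against 109541005 for the Meg3 TSS at its highest peak. Of the 11 Rian windows and 5 Mirg windows none was marked, so within this cluster the mark was found at Meg3, where 2 of 4 windows carried it.

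Of 14 lncRNAs of other tissues or of development 3 were marked, or 21.4% (4.66 to 50.8), near the 16.3% of all isolated lncRNA genes and beside 49.8% of all genes. Trp53cor1, an RNA induced by p53 near Cdkn1a, had 5.24 in pool I, 3.51 in pool J and 4.32 in the replicated list. Bvht, described in heart development, had 11.9, 8.95 and 10.4 on a peak of 3147 bp, and Carmn, described in heart and smooth muscle, had 4.57 in pool I, no match in pool J and 3.49 in the replicated list. Hotair, Haglr and Halr1 of the Hox clusters, Fendrr of lateral mesoderm, Lncenc1 and Platr3, Platr4, Platr10, Platr14 and Platr22 of embryonic stem cells, and Mir155hg had no replicated peak. The tissue was bulk cortex, so a weak mark in many cells and a strong mark in few cannot be told apart here.

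Many snoRNAs guide the modification of ribosomal RNA. Genes that span a snoRNA or carry a Snhg name were marked in 25 of 55 cases, or 45.5% (31.97 to 59.4), against 16.3% of all isolated lncRNA genes and 49.8% of all genes. Their median signal was 6.86, against 4.86 over all marked isolated lncRNA genes. Of the 8 Snhg genes that span a snoRNA, 7 were marked, and Snhg7os, an opposite-strand gene that spans none, was marked too. Beside those above, Snhg20 had 15.3 in pool I, 10.3 in pool J and 13.1 in the replicated list, Snhg5 had 12.4, 6.84 and 9.57, and Dancr had 13.5, 8.72 and 11.2. Snhg14, a long imprinted host of brain snoRNAs, had no peak at its 12 windows that follow the rule.

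**Figure D5:**
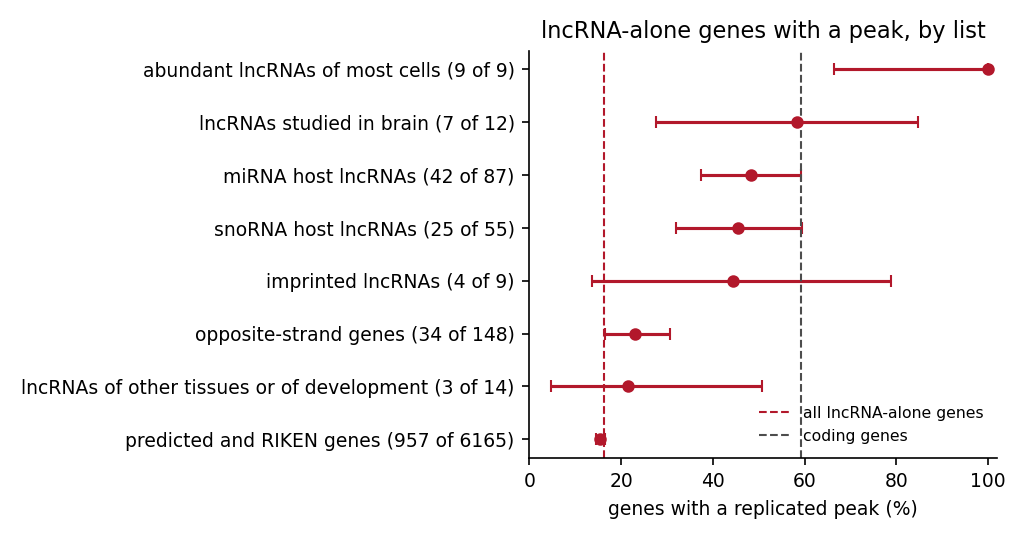
Share of lncRNA-alone genes with a replicated peak (x axis, percent) for 8 lists (rows), as points with exact 95% intervals and the counts beside each name; dashed lines give all lncRNA-alone genes (16.3%) and coding genes (59.3%). The abundant, brain, miRNA host and snoRNA host lists have intervals above 16.3%. The interval of the opposite-strand list starts at 16.5% and overlaps that of all lncRNA-alone genes (15.4 to 17.2). The predicted and RIKEN genes lie at 15.5%.

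Some CpG-rich lncRNA promoters were bare. At 128 genes no window had a replicated peak though the window with the highest CpG ratio was CpG-rich, 89 of them lincRNA, 25 antisense and 14 processed_transcript. The 5 with the highest ratio were 9530036O11Rik (1.16), which starts inside Shh, Mir155hg (1.14), AC125059.4 (1.11) inside Gal3st3, Gm12462 (1.08) inside the B-cell factor gene Pax5, and Gm10685 (1.06). None of these 5 had a peak in the list of either pool. In the opposite direction, the 5 strongest CpG-poor members were Malat1, with a GC content of 41.0% that kept it out of the CpG-rich class at a ratio of 0.675, then Lncppara, Gm14488, 2210408F21Rik and B930059L03Rik.

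Matches to sequence motifs were counted within 100 bp of the summit on both strands. The GC box GGGCGG, bound by SP factors, occurred at 10.4% of the lncRNA peaks, against 30.5% of coding promoter peaks, 3.46% of distal peaks and 10.3% of all autosomal peaks. The ETS motif CCGGAAG occurred at 2.11%, against 4.01%, 1.04% and 1.81% in the same order. The TATA box TATAAA occurred at 7.32%, against 3.04%, 10.02% and 8.09%, and the E-box CAGATG of neuronal basic helix-loop-helix factors at 14.9%, against 9.10%, 17.4% and 15.2%. For these 4 motifs the share in lncRNA peaks was close to that in all peaks.

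The CCAAT motif of NF-Y occurred at 21.1%, against 13.6% of coding promoter peaks, 22.1% of distal peaks and 19.9% of all peaks, and the AP-1 motif TGANTCA at 5.80%, against 2.83%, 5.99% and 5.17%. The YY1 motif AAGATGGC occurred at 0.923%, or 14 lncRNA peaks, against 1.40%, 1.28% and 1.29%. This lower share rests on few matches, and the difference was not tested. GCGCATGC of NRF1, TGACGTCA of CREB and the MEF2 motif were each found at 5 or fewer of the 1516 lncRNA peaks. A MEF2 match can hold a TATAAA match, and the GC box contains a CpG. A match describes letters and not a bound factor.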

How the data were processed

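H3K27ac ChIP-seq was done on left cerebral cortex in 2 pools of 4 biosamples. The authors deposited 4 narrowPeak lists on mm10 (GRCm38), with no aligner, peak caller or setting named in the sources used here. Per the file headers and the list descriptions, 1 replicated and 1 pseudoreplicated list came from both pools and 1 pseudoreplicated list from each pool alone. Each deposited peak carries a signal, whose normalization the sources used here do not give, a −log10 q and a summit; reads of CAST/EiJ origin may align less well to the reference genome.

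TSSs came from transcripts of the GENCODE vM21 basic annotation on 19 autosomes, and windows, peaks and motifs were joined with Python 3.11.15, numpy 2.4.6 and pandas 2.3.3. A window had a peak when they overlapped by at least 1 bp. Shares have exact 95% Clopper-Pearson intervals from scipy 1.17.1. No contrast between conditions exists, so no p-value was computed. The overlap code was tested on simulated data. Named genes were drawn from list members that follow the rule, the 10 highest, the 5 widest and the 3 highest of each type and place. Further sources were the 5 unmarked with the highest CpG ratio and those beside the 4 kb width. Not every gene of these groups is named in the text. Members and lists were chosen with earlier results of these data known. The alternatives changed the peak list, the pool, the −log10 q minimum, the window, the distance from coding TSSs, the TSSs, the gene types, the CpG limits and the motif range. A few items are not reported here.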

Additional observations from a re-analysis of the deposited data

How the results depend on the processing

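Of 123 alternative values, 100 counted as not moved. For shares and medians the limit was the standard deviation of the 2 pool values, and for the share matched in both pools its 95% interval. For gene list counts the limit was a factor of 1.5 from the reported count, and all of these stayed within it. For motifs the same limit applied to how many of the 10 had a higher share in lncRNA peaks than in all peaks. That number was 6 within 100 bp and 6 within 250 bp of the summit, though ETS and AP-1 were among them only within 100 bp. The matches themselves rose with the range, for the GC box from 157 to 377 lncRNA peaks. Leaving out a pool gave shares of 13.8% to 18.3% of isolated lncRNA windows, 12.5% to 17.0% of their genes, 56.1% to 61.7% of CpG-rich and 11.8% to 16.2% of CpG-poor lncRNA windows, 56.1% to 59.4% of coding windows, a median signal of 4.43 to 5.32 and a median width of 727 to 976.5 bp. A −log10 q of at least 5 gave 13.7% of lncRNA windows, 12.3% of genes, 11.5% of CpG-poor windows, 55.8% of coding windows, a signal of 5.33, a width of 1091.5 bp and 89.4% matched in both pools. Windows of 2500 bp gave 21.6% of lncRNA windows, 20.4% of genes, 19.7% of CpG-poor windows and 59.97% matched in both pools, and windows of 500 bp gave 70.9% matched. The gene's 5′ end alone gave 55.9% of CpG-rich lncRNA windows and 56.7% of coding windows, lincRNA alone 52.2% of CpG-rich windows, and a CpG ratio of at least 0.75 with a GC content of at least 55% gave 68.7%. The cause of these shifts was not tested. Over the alternatives the share of all isolated lncRNA windows was 13.7% to 21.6%. The share of coding windows, where it was computed again, was 55.8% to 61.5%. The share of CpG-rich lncRNA windows, 61.2% as reported, lay above the reported 59.5% of coding windows of both CpG classes, but not in every alternative. The reported share of CpG-rich coding windows was 90.7% and was not computed again. The use of further coding TSSs, and the list counts by pool, were added after seeing the data; with the further TSSs 16.5% of lncRNA windows were marked. No paired analysis was possible because the series has 1 group and no contrast. Depth is unknown, each pool gives 1 value, and differences between mice are not visible.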

Other observations

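Genes named for the strand opposite a coding gene (symbols ending in os) were marked in 34 of 148 cases, or 23.0% (exact 95% interval 16.5 to 30.6), against 16.3% of all isolated lncRNA genes. The highest of them were Frmd8os (18.1 in the replicated list, under the peak of Neat1), Fbxl12os (12.5), Atcayos (11.2) and Zfhx2os (11.1). Genes with a symbol of their own were marked in 28.2% of 355 cases, RIKEN genes in 18.5% of 1339, clone-named genes in 17.4% of 471 and numbered Gm genes in 14.7% of 4826.

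The number of annotated start sites went with the share of marked isolated lncRNA genes: 14.9% of 6247 genes with 1 window, 24.7% of 559 with 2 and 37.3% of 185 with 3 or more. More windows give more places for a peak, and this was not corrected for here or in the gene lists. The number of exons did not go with it, since 15.4% of 415 genes with 1 exon, 16.3% of 2636 with 2 and 16.4% of 3940 with 3 or more were marked, with overlapping intervals. Among autosomes, chromosome 8 had the lowest share of marked windows (12.1%, 9.30 to 15.4) and chromosome 17 the highest (22.2%, 17.9 to 26.9).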
